A study of Homo sapiens with 2 samples.

Results

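The metallothioneins are a family of small, cysteine-rich proteins. Their members in these data were taken by gene identity, from a list of 9 human metallothionein genes given as Ensembl gene IDs. The list was chosen with earlier results of these data known. Of these 9 genes, 5 had a row in the expression table of 18394 genes: MT2A (row ENSG00000125148_at), MT1E (ENSG00000169715_at), MT1G (ENSG00000125144_at), MT1M (ENSG00000205364_at) and MT3 (ENSG00000087250_at). The other 4 listed genes, MT1X, MT1F, MT1H and MT1A, are not analysed here. Expression was measured in MDA-MB-231(SA), a variant of the breast cancer line MDA-MB-231 that is known for forming bone metastases in mice, and in the parental MDA-MB-231 line, an oestrogen receptor-negative human line. Both were grown in flasks in low-glucose DMEM with inactivated fetal bovine serum, non-essential amino acids and antibiotics, and no further treatment is named in the labels. Total RNA of 1 culture per line was put on 1 Affymetrix array each, so there are no replicates and none of the differences could be tested. The variant's derivation and the number of passages are not given in the labels. The labelled line could not be checked against marker genes, since the rows carry Ensembl IDs and 0 of the IDs in the gene table used here were Ensembl IDs.

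Metallothioneins bind zinc and copper through their cysteines and also take up toxic metals such as cadmium, and they act as a store and buffer of zinc in the cell. When free zinc goes up, the transcription factor MTF1 binds short metal response elements in the promoters of the MT1 and MT2A genes and switches them on, and glucocorticoids and oxidative stress induce many of them as well. MT2A and the MT1 genes are active in many tissues, whereas MT3 is best known from the brain, where it was described as a growth inhibitory factor for neurons. In breast cancer, MT1E is known for its expression in oestrogen receptor-negative lines. The RefSeq annotation places all 5 measured genes on chromosome 16, in a cluster of 16 metallothionein loci of which 11 are protein-coding and 5 are pseudogenes. Along the chromosome the measured genes lie in the order MT3, MT2A, MT1E, MT1M and MT1G.

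Of the 5 measured members, MT2A alone has a promoter entry in the RefSeq sequence table used here. Its 250 bases before the start of the gene are shown because they carry the metal response elements through which the family is switched on (GRCh38.p14, chr16:56608334-56608583, plus strand, 5′ to 3′). Capitals mark matches to the element's core, searched as TGCACNC and TGCGCNC on both strands.
MT2A: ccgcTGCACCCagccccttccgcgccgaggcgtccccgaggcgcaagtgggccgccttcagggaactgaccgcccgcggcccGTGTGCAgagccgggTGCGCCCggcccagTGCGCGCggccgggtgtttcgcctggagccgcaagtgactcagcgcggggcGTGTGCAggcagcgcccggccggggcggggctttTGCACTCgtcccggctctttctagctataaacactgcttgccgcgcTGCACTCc
The stretch holds 7 matches, 5 of them on the plus strand and 2 on the minus strand, and none of them overlap. The form TGCACNC accounts for 5 matches and the form TGCGCNC for 2. The match nearest to the gene begins 8 bases before its start, and the farthest begins 246 bases before it. Among the 35116 promoter entries of the table, cut to the same 250 bases, 24.8% hold at least 1 match and 11 entries (0.0313%) hold 7 or more. A match is a description of the letters and does not show that MTF1 was bound there in either line.

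The comparison asked how metallothionein expression in the SA variant stood relative to the parental line. Of the 5 members, 3 had a higher level in the SA variant (MT1E, MT3 and MT2A) and 2 a lower one (MT1M and MT1G), and the differences of MT2A and MT1G were small. Levels are the values that the authors deposited after RMA, a method that corrects background, normalizes the arrays and summarises the probes of a gene. They were taken as log2, since no log base is given. A difference of 1 on this scale is 2-fold, which served as the rule of size, and genes were compared if they reached the median of all values, 5.62, on at least 1 array. All 5 members did so, MT1M through the parental array alone and MT3 through the SA array alone. By that rule 1 member, MT1M, was lower in the SA variant, against a background of 4.17% of the 9725 genes compared that were at least 2-fold lower. With the floor required on both arrays MT1M was not compared and that count was 0. None of the 5 was at least 2-fold higher, against a background of 5.75%. The median difference of the 5 members, SA variant minus parental, was 0.18, beside 0.045 for all genes compared, whose quartiles were -0.29 and 0.39. The members' median is the MT2A value, and it was 0.039 after the arrays were quantile normalized to each other, 0.0018 without MT3 and 0.58 over the 2 members left when the floor was raised to the 75th percentile. At a size of 1.5-fold, 2 members were higher (MT1E and MT3, background 15.8%) and 1 was lower (MT1M, background 11.8%). MT3 and MT1M were compared only through the array on which they were higher, whereas MT1E reached the floor on both. With 5 members and 1 array per line, these counts are a description and are not read as a result about the family.

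**Figure D1:**
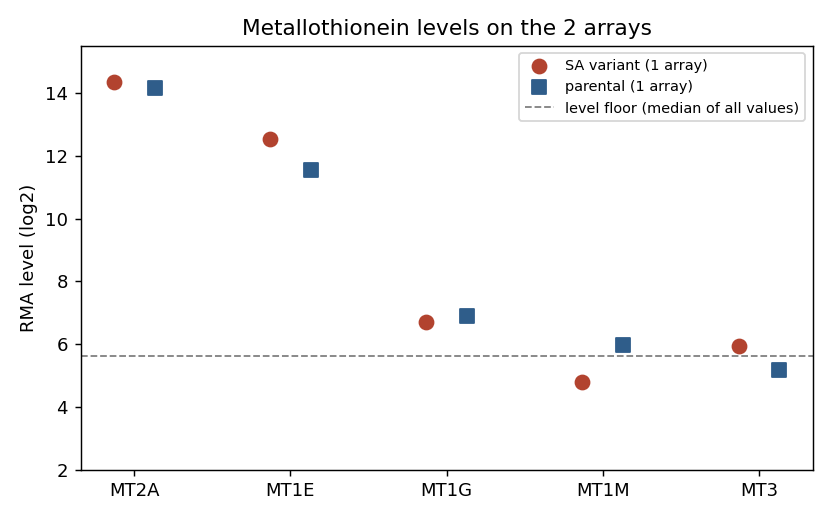
RMA level (log2, vertical axis) of the 5 metallothioneins on the SA variant array (red circles) and the parental array (blue squares), 1 array per line. MT1E stands higher in the SA variant and MT1M lower, with the dashed level floor of 5.62 between the MT1M values.

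MT2A, the main inducible metallothionein of most human cells, had a level of 14.35 in the SA variant and 14.17 in the parental line. The difference was 0.18, or 1.13-fold, and 72.2% of the genes compared differed by at least as much in either direction. Both levels lay near the top of the scale, where the highest value of any gene was 14.40 on the SA array and 14.48 on the parental array. Near that limit an array can compress differences, and its part in the small MT2A difference was not tested.

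MT1E, which encodes another of the metal-inducible MT1 proteins, had a level of 12.53 in the SA variant and 11.55 in the parental line. The difference of 0.98 (1.97-fold) was just short of the 2-fold size, and MT1E was the member with the largest difference upward. Of the 9725 genes compared, 592 (6.09%) had a difference at least as high. Over all of them, 1021 (10.5%) differed by at least as much in either direction. Among the 1945 genes of its own level class, the brightest of 5 classes by mean level, 172 (8.84%) differed by at least as much in either direction.

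MT1M, also an MT1 gene and the direct neighbour of MT1E among the family's loci, had the opposite difference. Its level was 4.79 in the SA variant and 5.99 in the parental line, a difference of -1.20 (2.29-fold lower). Of the genes compared, 245 (2.52%) had a difference at least as low, and 602 (6.19%) differed by at least as much in either direction. The level in the SA variant lay below the floor, and that in the parental line was only a little above it. RMA values in this range hold much background signal, so the true fold could be larger or smaller than this. Whether the gene was silent in the SA variant was not tested. In the dimmest of the 5 level classes, to which MT1M belongs, 4.94% of genes were at least 2-fold lower, and 190 of 1945 genes (9.77%) differed by at least as much as MT1M in either direction. The class takes in mean levels below the floor, and such genes were compared only if 1 array reached it. That choice favours large differences, so these shares are not a neutral background.

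**Figure D2:**
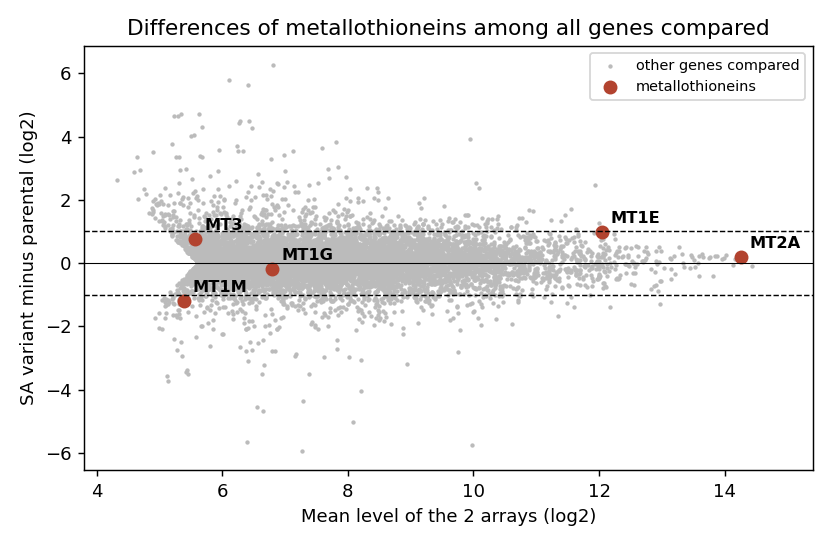
Difference SA variant minus parental (log2, vertical axis) against the mean level of both arrays (log2, horizontal axis) for the 9725 genes compared, with other genes as grey points and the 5 metallothioneins as labelled red points. Dashed lines mark the 2-fold size; MT1M lies below the lower line at a dim level and MT1E just under the upper line at a bright level.

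MT1G, a further MT1 gene, had a level of 6.71 in the SA variant and 6.88 in the parental line. Its difference of -0.17 (1.13-fold lower) was of the same size as that of MT2A in the other direction, and 72.9% of the genes compared differed by at least as much. MT3, the brain member, had a level of 5.95 in the SA variant and 5.18 in the parental line, below the floor. Its difference was 0.77 (1.70-fold higher), and 10.04% of the genes compared had a difference at least as high. In either direction, 17.4% of the genes compared differed by at least as much. Like MT1M, MT3 belonged to the dimmest class, in which 21.4% of genes differed by at least as much as MT3 in either direction. The limit of that class given for MT1M holds for this share too. No MT3 level on either array was far from the floor.

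The differences of the members ran from -1.20 for MT1M to 0.98 for MT1E. Along the chromosome, MT3, MT2A and MT1E, the 3 members with a higher level in the SA variant, come first, and MT1M and MT1G, the 2 with a lower level, come after them. The change of sign lies between the neighbours MT1E and MT1M, which had the members' largest upward and downward differences. With 5 genes this order is a description, and it rests in part on the small differences of MT2A (0.18) and MT1G (-0.17). Of the genes compared, 72.2% differed by at least as much as MT2A and 72.9% by at least as much as MT1G. The 3 members that reached the floor on both arrays were MT2A, MT1E and MT1G, and the 2 that did so on 1 array were MT1M and MT3.

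**Figure D3:**
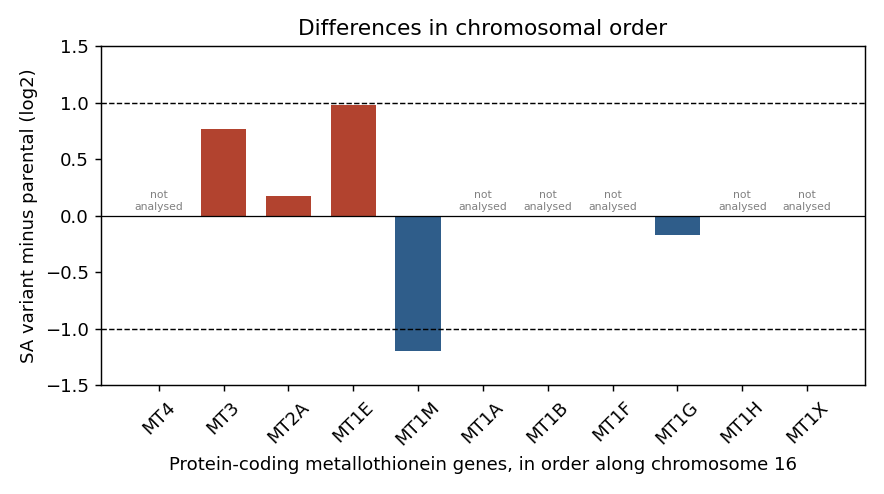
Difference SA variant minus parental (log2, vertical axis) of the 5 measured metallothioneins as bars (red above 0, blue below 0), placed among the 11 protein-coding genes of the family in their order along chromosome 16. The 3 bars above 0 stand left of the 2 below it, dashed lines mark the 2-fold size, and 6 genes are not analysed here.

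Metallothionein transcripts are very alike in sequence, and which probes lie behind each row is not given in the sources used here. Signal that a probe took from another member or a pseudogene cannot be told apart from that of the named gene, which touches each value above. These are bulk RNA values, so fewer cells with a transcript and less of it per cell cannot be told apart.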

How the data were processed

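The deposited values are log2 expression levels, 1 per Ensembl gene ID and array, made by the authors with RMA per the submitters' processing notes. For software version, array model, probe definition and log base the sources used here give nothing; base 2 was taken, as RMA writes it. The table held 18394 genes and 2 arrays, SA variant and parental, 1 each, and this number limits the precision.

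Per gene, the parental value was subtracted from that of the SA variant with Python 3.11.15, numpy 2.4.6 and pandas 2.3.3. Genes were compared when at or above the median of all values, 5.62, on at least 1 array, and counted at a difference of 2-fold. The 5 level classes hold 1945 genes each. No test was run. The calculation was tested on simulated data, with changes larger than 2-fold placed in brighter genes only. MT1G and dim genes such as MT1M and MT3 were not covered by it. The simulated noise was smaller than the spread of the real differences (SD 0.68 over all genes compared). The simulation therefore checks the arithmetic only. Alternatives were other floors, centring, a lowess trend (span 0.4, statsmodels 0.14.6), quantile normalization and other sizes.

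Symbols came from the member list and loci from RefSeq. All members were to be named with both values. The members and lists were chosen with earlier results of these data known. Lists of metal transport, stress and glucocorticoid genes, of genes near the cluster and of cell type markers needed symbols for Ensembl IDs and are not analysed here.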

Additional observations from a re-analysis of the deposited data

How the results depend on the processing

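No paired analysis was possible because each line had a single array. No member changed direction under the alternatives in which it was compared: MT1E ran from 0.93 to 0.98, MT3 from 0.71 to 0.77, MT2A from 0.039 to 0.18, MT1G from -0.24 to -0.17 and MT1M from -1.27 to -1.20. Floors and sizes leave a member's difference as it is, so only centring, the trend and quantile normalization could move it. The ranges therefore say nothing about variation between arrays of the same line. After quantile normalization the MT2A difference was 0.039, and so was the members' median. Raising the floor to the 75th percentile left 2 members with a median of 0.58, and leaving out MT3 gave 0.0018. With the 1.5-fold size 2 members were higher, MT1E and MT3. The count of 2-fold lower members was 0 under that higher floor, with the floor on both arrays and with the 3-fold size, the first 2 because MT1M was then not compared. Over all genes, 308 were higher and 256 lower of 5096 compared with the floor at the 75th percentile. With the floor on both arrays, 358 were higher and 283 lower of 8669. Of the 9725 genes compared, 1533 were higher and 1150 lower at the 1.5-fold size, and 187 and 116 at the 3-fold size. In the 3 settings with a count of 0, only 2, 3 and 5 members were compared, so that count is not read as a result. Floors and sizes change counts by construction. Quantile normalization sets each gene to the mean of both arrays at its rank. MT2A ranked 2 on the SA array and 3 on the parental array, so its 0.039 is the gap between neighbouring ranks. Dim signal limits MT1M and MT3.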

Other observations

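The RefSeq sequence table also holds promoters of 2 listed members whose expression is not analysed here. Cut to the same 250 bases before the gene, the MT1H promoter had 8 matches to the metal response element core (TGCACNC or TGCGCNC, both strands) and the MT1X promoter had 4, beside 7 in MT2A. Of the 35116 promoter entries, 6 (0.0171%) held 8 or more and 130 (0.370%) held 4 or more.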
